A study of Mus musculus with 10 samples.

Results

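The protein-coding genes described here carry RIKEN clone names that start with 1700 and end with Rik. They were chosen by name, biotype and a read minimum: a gene had to be protein-coding in the mm10 annotation and to have at least 10 reads summed over 6 RNA-seq libraries of mouse testis. 103 genes carried such a name and 97 met the minimum, out of 55421 genes in the count files. The 2 genes just inside the minimum were 1700020A23Rik with 13 reads, all of them in Mov10+/+ replicate 2, and 1700008P02Rik with 35. The 2 just outside were 1700042G07Rik with 6 reads and 1700001C19Rik with 3.

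The study compared testes of Mov10-/- mice, a global knockout made with Actb-Cre, which deletes in all tissues, with testes of Mov10+/+ mice. All were 21 days old (P21) and on a mixed background of 129, C57BL/6 and FVB. Each genotype had 3 RNA-seq libraries from separate pairs of testes, numbered 2, 3 and 4 for Mov10-/- and 1, 2 and 3 for Mov10+/+. 4 CLIP-seq libraries of RNA bound by MOV10, an RNA helicase, came from wild type testes of the same age.

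RIKEN clone names date from a large effort to sequence full-length mouse cDNAs, in which the number at the start stood for the source library. The 1700 clones came from adult male testis, as did most of those that start with 49, so that the name marks a transcript first caught in testis and says nothing of what its protein does. In the mouse testis spermatogonia divide, spermatocytes go through meiosis, and spermatids build the acrosome, the tail and a tightly packed nucleus. In the first wave of spermatogenesis round spermatids appear at about the end of the third week, so that testes of this age can differ in how many they hold.

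The 97 genes lay on 20 chromosomes, 7 of them on the X. They were short: the median coding length was 588 nt (196 codons) and the median total exon length 1272 nt, against 1338 nt and 4000 nt for the 17513 protein-coding genes with at least 10 reads. The median number of exons was 4, against 8. Among the genes fitted below, the shortest coding region had 66 codons (1700018G05Rik) and the longest 1183 (1700022I11Rik). 5 genes (5.15%) had a single exon. Clustering on the genome was sparse, and the closest neighbours were 1700017D01Rik and 1700025F22Rik on chromosome 19, 8788 bp apart. 9 of the 97 now have another name in RefSeq, 1700064H15Rik was not found there, and the rest are still known by clone names.

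Promoters were looked at for letters that bind factors active in the testis. RefSeq promoters of GRCm38.p6, from 250 bases before to 50 after each start site, were held for 78 of the 97 genes, and each motif was searched on both strands. An X-box motif of 10 bases, GTTGCC directly followed by ATGG, part of the site of the RFX factors, which act on cilium and sperm tail genes, was found in 5 of the 78 (6.41%), against 0.633% of all 27025 genes with a promoter and 0.555% of the 17492 protein-coding ones. TGACGTCA, the full cAMP response element that CREM binds in spermatids, was found in 1 of 78 (1.28%, against 2.03% of all genes). AACNGTT, a core of the MYB site, was found in 2 (2.56%, against 5.01%), and TATAAA, the TATA box, in 9 (11.5%, against 15.7%). No motif contains another, and TGACGTCA reads the same on both strands. These counts describe letters in a window, and binding was not measured.
The windows that hold the X-box letters and the cAMP element are shown because the X-box share lay farthest from that of all genes and the cAMP element is a known spermatid site. Each is 30 bases, 5′ to 3′ on the strand where the motif was read, with the motif in capitals.
1700109H08Rik: tggctgggaaGTTGCCATGGccacattctg
1700125H20Rik: tgtgttggcaGTTGCCATGGttttgctccg
1700010I14Rik: ggaagctgcaGTTGCCATGGaaacagtaaa
1700034J05Rik: tggttcctttGTTGCCATGGtaaccaacag
1700001K19Rik: gtcacactggGTTGCCATGGagatacctgt
1700066M21Rik: acgcggcgtgcTGACGTCAcggcgaccgaa
They lie at chr5:3571638-3571667, chr11:85171029-85171058, chr17:8988302-8988331, chr6:146954434-146954463, chr12:110682667-110682696 and chr1:57377579-57377608, in the order shown. Of the 5 with the X-box letters, all but 1700010I14Rik had them on the strand of the gene. The centre of the motif lay 16 to 63 bases before the start site in these 5 and 26 bases before it in 1700066M21Rik.

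Mov10 itself checked the labels: it stood at 114, 96.4 and 119 CPM (counts scaled to a common number of reads on genes, with TMM, the library factors of edgeR) in Mov10+/+ replicates 1, 2 and 3 and at 29, 26.6 and 26.7 CPM in Mov10-/- replicates 2, 3 and 4. Its log2 fold change was -2.0 ± 0.12 (SE, n = 3 per genotype, adjusted p = 0.00552 by the quasi-likelihood test of edgeR, with p adjusted by Benjamini-Hochberg over all genes fitted). Between 5083407 and 9230540 reads lay on genes in the RNA-seq libraries, the fewest in Mov10-/- replicate 3, in which 57.2% of reads were not aligned, against 26.5% to 35.9% in the other 5. Of the germ cell lists, 34 of 35 spermatid and 26 of 26 spermatocyte genes passed the expression filter. So did 15 of 16 Sertoli, 12 of 12 adipocyte and 10 of 10 macrophage genes, against 3 of 10 epididymal ones. Passing the filter therefore does not single out germ cells.

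The genes of the 1700 series were mostly lower in Mov10-/- testes, with no single gene past the threshold by edgeR's quasi-likelihood test and up to 31 past it by other tests of the same counts. 87 of the 97 passed the filter of 1 RPM (CPM without the TMM factors) in at least 3 libraries and were fitted with 20240 genes in all. The log2 fold change, Mov10-/- over Mov10+/+, was negative in 80 and positive in 7, with a median of -0.89, against 0.03 over all genes fitted. The quasi-likelihood test called none (fold change over 2 and adjusted p under 0.05), lower or higher, where 0.00494% of all genes were called lower, which is Mov10 alone. The lowest adjusted p of any of the 87 was 0.15. At an unadjusted p under 0.05, 50 were lower and 0 higher, against 11.9% lower and 5.57% higher over all genes. In bulk testis RNA, fewer cells of a type and less RNA per cell cannot be told apart.

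The filter lets in a gene through the genotype in which it is high, so the count of genes that passed it is no support. A second fit kept all 26358 genes with at least 10 reads summed. In it all 97 genes were fitted, the median was -1.0 against 0.02 over all genes, and 55 were lower at an unadjusted p under 0.05 and 0 higher, against 12.7% lower and 5.40% higher over all genes. Again the quasi-likelihood test called none. The sum of 10 reads can be reached through the high genotype too. Most members that only this fit held were read almost only in Mov10+/+ testes. Its median and its numbers of lower genes are therefore no independent support. Other tests of the same counts did make calls: DESeq2 called 31 of 87 lower and 0 higher, against 4.88% and 0.252% of all genes. The exact test of edgeR called 29 lower, against 5.09%, and limma voom called 0, with 48 lower at an unadjusted p under 0.05, against 10.9%. The tests also differed in simulated counts, in which 200 of 20240 genes were changed 4-fold. Unchanged genes called there were 36 by DESeq2, 26 by the exact test and 33 by edgeR's likelihood ratio test. The changed genes recovered were 158, 156 and 165. The quasi-likelihood test called 7 unchanged genes and recovered 132, and voom called 4 and recovered 127.

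**Figure D1:**
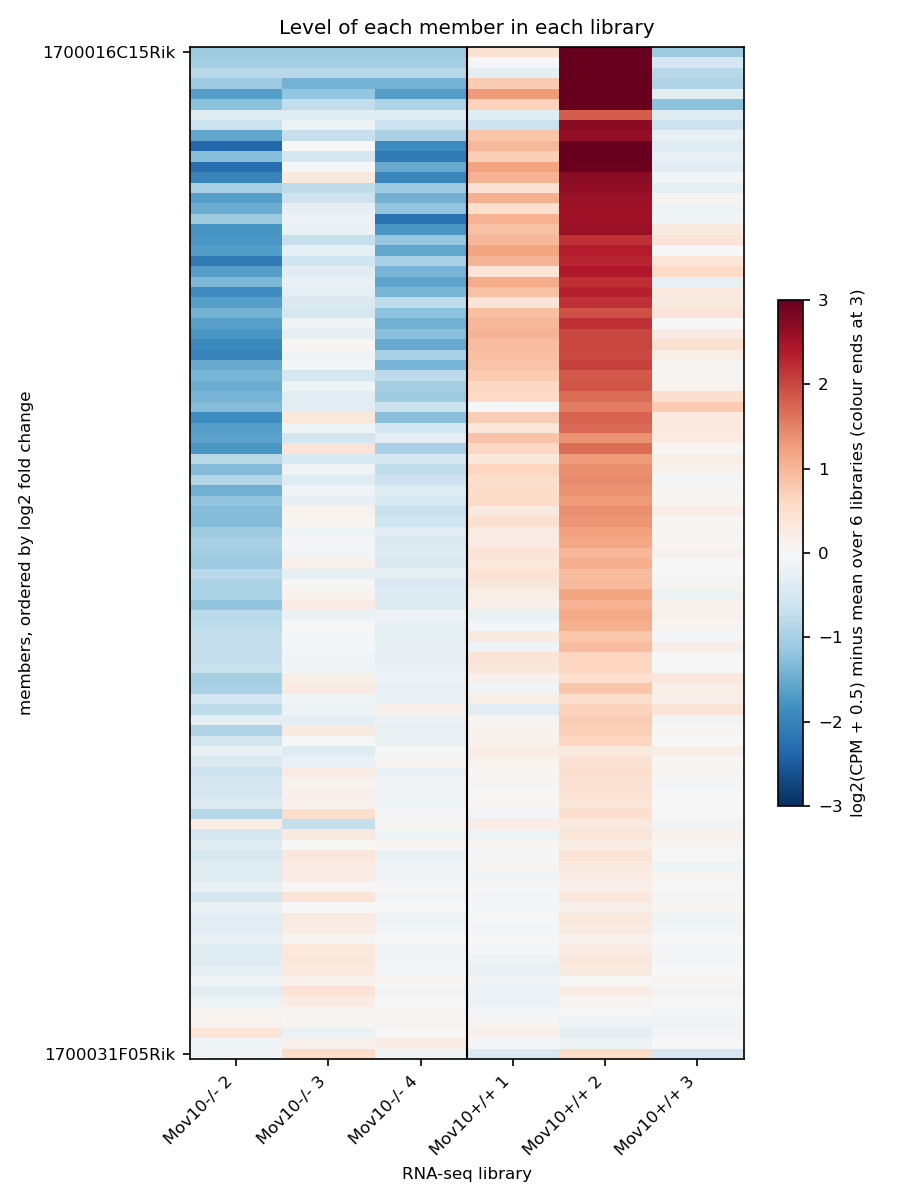
Level of each of the 97 genes (rows, ordered by log2 fold change from the fit of all genes with at least 10 reads) in each RNA-seq library (columns), as log2(CPM + 0.5) minus the gene's mean over the 6 libraries, with colours ending at 3 either way. Mov10+/+ replicate 2 is the reddest column and Mov10-/- replicate 2 the bluest, while the lower rows are pale in all 6 libraries.

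The 6 libraries did not fall into 2 tight groups. 85 of the 97 genes had their highest level in Mov10+/+ replicate 2, and 81 had their lowest, or tied lowest, in Mov10-/- replicate 2. Over all genes fitted, 29.2% were highest in the first and 30.2% lowest in the second. The median level of the 97 genes, on the log2 scale relative to each gene's mean over the 6 libraries, was 1.16 in Mov10+/+ replicate 2, 0.25 in replicate 1 and 0.01 in replicate 3. It was -0.95, -0.08 and -0.38 in Mov10-/- replicates 2, 3 and 4. Mov10-/- replicate 3 therefore stood close to Mov10+/+ replicate 3, and 36 of the 87 fitted genes were higher in the former than in the latter.

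The genes took 0.512% of the reads on genes in Mov10+/+ replicate 2, 0.345% in replicate 1 and 0.312% in replicate 3, and 0.22%, 0.312% and 0.267% in Mov10-/- replicates 2, 3 and 4. The spread within a genotype was wide. The range over the 3 Mov10+/+ libraries had a median of 1.10 on the log2 scale, against 0.49 over all genes fitted, and that over the 3 Mov10-/- libraries was 0.96, against 0.48. In 49 of the 87 the Mov10+/+ range was larger than the size of the difference between genotypes.

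Levels without overlap between genotypes give the same direction. In 42 of 87 genes every Mov10-/- library was below every Mov10+/+ library, against 14.1% of all genes fitted, and in 1 every Mov10-/- library was above, against 11.9%. Over all 97 genes in the wider fit, which has the limit named above, the counts were 45 and 1, against 14.2% and 11.7%. Without Mov10-/- replicate 3 the 42 became 67, while the share of all genes went from 14.1% to 21.9%. Without Mov10+/+ replicate 2 the median log2 fold change of -0.89 became -0.53. Without both libraries that stood farthest out, Mov10-/- replicate 2 and Mov10+/+ replicate 2, it was -0.37. In that fit 25 of 87 genes were lower at an unadjusted p under 0.05 and 0 higher, against 6.55% and 2.97% of all genes. 42 lay below without overlap and 4 above, against 22.6% and 21.3%.

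The differences spanned a wide range. 22 of the 87 had a log2 fold change under -2, 18 lay between -2 and -1, 18 between -1 and -0.5, 22 between -0.5 and 0, and 7 at 0 or above. Of the 22 under -2, 18 had no overlap between genotypes and 21 had an adjusted p under 0.05 in DESeq2, while of the 22 between -0.5 and 0 these numbers were 2 and 1. The lowest fitted value, -4.07 ± 1.34, belonged to 1700001K19Rik, which was chosen for naming after its values were seen. It stood at 5.86, 39.4 and 1.92 CPM in Mov10+/+ replicates 1, 2 and 3 and at 0.123, 2.66 and 0.369 CPM in Mov10-/- replicates 2, 3 and 4, so that the genotypes overlapped. Without Mov10-/- replicate 3 its value was -5.91, and without Mov10+/+ replicate 2 it was -2.09.

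In the 8 genes with the most negative values and no overlap between genotypes, Mov10+/+ replicate 2 was the highest library, and the lowest was Mov10-/- replicate 2 in 5 and replicate 4 in 3. 1700016H13Rik (117 codons) stood at 6.56, 42.8 and 3.1 CPM in Mov10+/+ replicates 1, 2 and 3 and at 1.23, 2.45 and 0.491 CPM in Mov10-/- replicates 2, 3 and 4. The log2 fold change was -3.71 ± 1.08 (adjusted p = 0.165). Mov10+/+ replicate 2 lay far above the other Mov10+/+ libraries, and without it the log2 fold change was -1.87.

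1700056E22Rik, a gene of 1 exon, stood at 3.4, 17.9 and 1.92 CPM in Mov10+/+ and at 0.988, 1.23 and 0.86 CPM in Mov10-/- libraries, in the same order. The 3 Mov10-/- values were close together and the Mov10+/+ values were not. This gave a log2 fold change of -2.91 ± 0.87 (adjusted p = 0.17).

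1700014D04Rik, one of the longer coding regions at 983 codons, stood at 33.5, 97.1 and 16.7 CPM in Mov10+/+ and at 4.69, 10 and 5.53 CPM in Mov10-/- libraries. In CPM the gap between the lowest Mov10+/+ and the highest Mov10-/- library was larger than the range of the Mov10-/- libraries. On the log2 scale it was smaller than that range. The log2 fold change was -2.89 ± 0.66 (adjusted p = 0.15).

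1700029H14Rik had a narrower gap, with 27.4, 91.7 and 17.7 CPM in Mov10+/+ and 3.95, 12.7 and 4.05 CPM in Mov10-/- libraries. Its log2 fold change was -2.77 ± 0.73 (adjusted p = 0.15). 1700057G04Rik had the smallest error of the 8, with 16.9, 39.5 and 10.8 CPM in Mov10+/+ and 2.1, 4.91 and 3.44 CPM in Mov10-/- libraries and a log2 fold change of -2.70 ± 0.55 (adjusted p = 0.15). Its groups were well apart in all 6 libraries.

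1700019D03Rik, which RefSeq lists also as smAKAP, a small membrane protein that anchors protein kinase A, stood at 22, 49.8 and 9.19 CPM in Mov10+/+ and at 2.59, 7.57 and 2.83 CPM in Mov10-/- libraries. The lowest Mov10+/+ library was only slightly above the highest Mov10-/- library, replicate 3. Its log2 fold change was -2.68 ± 0.68 (adjusted p = 0.15).

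The other 2 of the 8 had a narrow gap between genotypes. 1700092M07Rik, also listed as Tex54, stood at 3.52, 15.7 and 2.03 CPM in Mov10+/+ and at 0.494, 1.84 and 0.737 CPM in Mov10-/- libraries (log2 fold change -2.85 ± 0.88, adjusted p = 0.179). 1700001P01Rik stood at 9.14, 26.9 and 3.96 CPM and at 1.73, 3.68 and 0.491 CPM (log2 fold change -2.81 ± 0.86, adjusted p = 0.178). In both the highest Mov10-/- library nearly reached the lowest Mov10+/+ library. DESeq2 gave all 8 an adjusted p under 0.05, from 0.000268 (1700014D04Rik) to 0.0351 (1700092M07Rik). Without Mov10+/+ replicate 2 the 8 log2 fold changes lay between -2.01 and -1.38, each still negative. Without Mov10-/- replicate 3 they lay between -4.31 and -3.01.

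**Figure D2:**
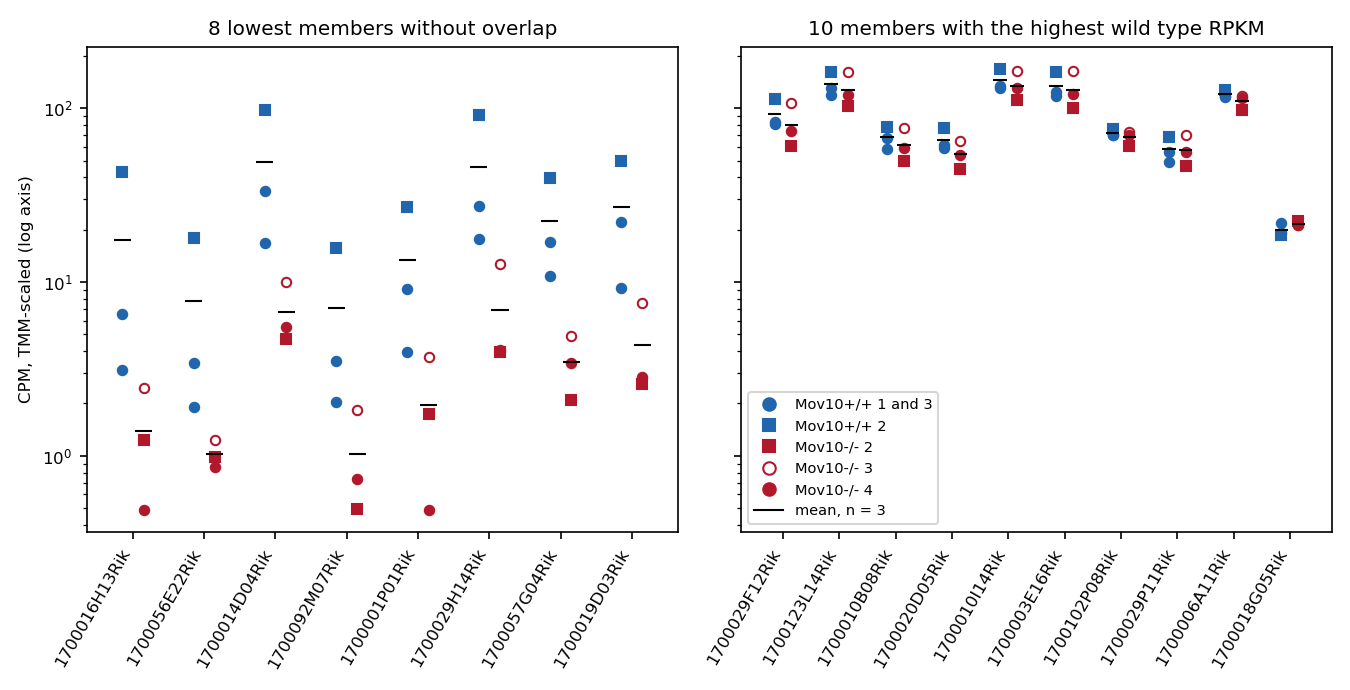
CPM on a log axis in each library for the 8 lowest genes without overlap (left) and the 10 with the highest wild type RPKM (right), with blue for Mov10+/+, red for Mov10-/- and a line at the mean of 3 libraries. On the left all red points lie under all blue ones and Mov10+/+ replicate 2 tops each gene, while on the right the colours mix.

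8 of the fitted genes now have a name that says something of the protein. Acsbg3 (1700061G19Rik), an acyl-CoA synthetase of the bubblegum family, which joins fatty acids to coenzyme A, stood at 47, 131 and 31.1 CPM in Mov10+/+ and at 6.67, 20.9 and 9.58 CPM in Mov10-/- libraries. All 3 Mov10-/- libraries were below all 3 Mov10+/+ libraries. The fitted log2 fold change was -2.53 ± 0.62 (adjusted p = 0.15 by edgeR's quasi-likelihood test and 0.000778 by DESeq2).

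2 members of the family of membrane-spanning 4-domain proteins, Ms4a19 (1700025F22Rik) and Ms4a20 (1700017D01Rik), are the neighbours on chromosome 19. Ms4a19 stood at 33.9, 40.6 and 26.1 CPM in Mov10+/+ and at 15.8, 24.5 and 22 CPM in Mov10-/- libraries (log2 fold change -0.69 ± 0.24, adjusted p = 0.212). Ms4a20 stood at 63.1, 80.8 and 61.8 CPM and at 37.5, 52.6 and 48.8 CPM (log2 fold change -0.57 ± 0.17, adjusted p = 0.172). Both were lower in every Mov10-/- library, by a smaller amount than Acsbg3, and the difference between genes was not tested.

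H2bl1 (1700024P04Rik), a histone H2B variant encoded by 1 exon, stood at 5.51, 18.7 and 2.25 CPM in Mov10+/+ and at 0.247, 3.07 and 0.246 CPM in Mov10-/- libraries. Mov10-/- replicate 3 was above Mov10+/+ replicate 3, so the genotypes overlapped. With it the log2 fold change was -3.04 ± 1.11 (adjusted p = 0.221), without it -5.07, and without Mov10+/+ replicate 2 -1.91.

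Efcab15 (1700023F06Rik), named for an EF-hand, a fold that binds calcium, had the same overlap, with 13.1, 45.1 and 4.17 CPM in Mov10+/+ and 0.741, 5.32 and 1.6 CPM in Mov10-/- libraries (log2 fold change -3.10 ± 0.98, adjusted p = 0.183). Pttg1ip2 (1700015F17Rik) had 12.3, 30.3 and 8.45 CPM against 2.47, 7.16 and 3.69 CPM (log2 fold change -1.96 ± 0.58, adjusted p = 0.167). Fam166c (1700001C02Rik) had 15.5, 34.2 and 14.8 CPM against 4.82, 13.7 and 7.74 CPM (log2 fold change -1.31 ± 0.48, adjusted p = 0.222). In these last 2 the genotypes did not overlap, although Mov10-/- replicate 3 came close to Mov10+/+ replicate 3. Without Mov10+/+ replicate 2 the log2 fold changes were -1.69 for Acsbg3, -1.85 for Efcab15, -1.26 for Pttg1ip2 and -0.81 for Fam166c, and without Mov10-/- replicate 3 that of Efcab15 was -4.13.

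Mtres1 (1700021F05Rik), a mitochondrial protein that sustains transcription of the organelle's genome, was the exception among the renamed genes. It stood at 28.6, 30.5 and 31.2 CPM in Mov10+/+ and at 28.8, 33.3 and 31.1 CPM in Mov10-/- libraries, with a log2 fold change of 0.04 ± 0.15. The genotypes overlapped, and the 6 libraries were close to each other.

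The genes with the highest levels showed little difference between genotypes. Levels are compared between genes as RPKM, CPM per kilobase of exon. Mean wild type RPKM of the 87 ran from 2.38 (1700028K03Rik) to 80.9 (1700029F12Rik), with a median of 21.5, against 10.3 for all protein-coding genes fitted. The 10 highest were, in order, 1700029F12Rik (80.9), 1700123L14Rik (78.5), 1700010B08Rik (75.7), 1700020D05Rik (64.7), 1700010I14Rik (63.0), 1700003E16Rik (60.5), 1700102P08Rik (58.4), 1700029P11Rik (56.5), 1700006A11Rik (55.6) and 1700018G05Rik (51.6). The order among neighbours in this row was not tested, and their values over 3 libraries overlap.

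In 1700029F12Rik the values were 80.7, 113 and 83.3 CPM in Mov10+/+ and 60.5, 107 and 74.1 CPM in Mov10-/- libraries. Mov10-/- replicate 3 and Mov10+/+ replicate 2 were the 2 highest. 1700102P08Rik varied little, with 70.2, 76.1 and 70.1 CPM against 60.3, 73.4 and 70.4 CPM (log2 fold change -0.09 ± 0.11). 1700123L14Rik, a gene of 1 exon that RefSeq lists also under a nucleoporin name (Npap60), had 130, 162 and 119 CPM against 103, 161 and 119 CPM. Reads without a unique alignment were counted apart from genes.

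Over the 10 the log2 fold change ran from -0.28 to 0.12 with a median of -0.10, and the genotypes overlapped in all of them. Of the 36 genes between 20 and 50 RPKM, 20 had no overlap with Mov10-/- lower and the median was -0.76. Of the 41 under 20 RPKM it was 22, with a median of -1.55. These bounds were set after the values were seen, and the wild type level is itself part of the fold change.

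**Figure D3:**
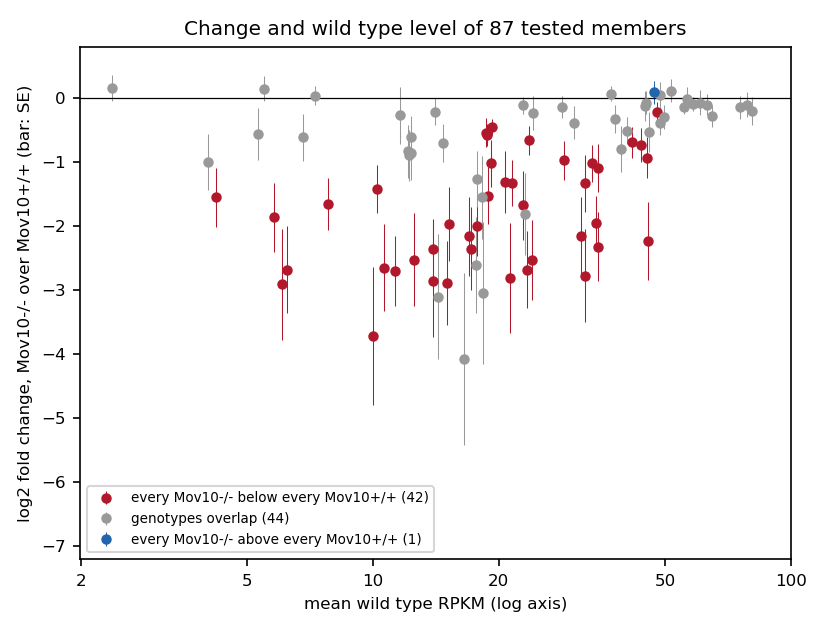
Log2 fold change (Mov10-/- over Mov10+/+, bars show SE) against mean wild type RPKM on a log axis for the 87 fitted genes, coloured by whether the genotypes overlap. The 10 genes at 50 RPKM and above lie between -0.28 and 0.12, and the values under -2 all lie under 50 RPKM.

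Among genes with a mean of at least 10 CPM the 4 smallest differences were in 1700029P11Rik, Mtres1, 1700037H04Rik and 1700017B05Rik. 1700029P11Rik stood at 48.8, 68.7 and 56.1 CPM in Mov10+/+ and at 46.3, 70.4 and 55.8 CPM in Mov10-/- libraries, with a log2 fold change of -0.01 ± 0.19. 1700037H04Rik stood at 98.4, 129 and 105 CPM and at 88.8, 151 and 105 CPM (0.05 ± 0.20). 1700017B05Rik stood at 177, 210 and 196 CPM and at 179, 234 and 198 CPM (0.07 ± 0.12). In each of them the genotypes overlapped, and Mov10-/- replicate 3 was the highest of the Mov10-/- libraries.

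1 gene alone lay higher in all Mov10-/- libraries, the X-linked 1700011M02Rik, with 19.3, 20.2 and 19.6 CPM in Mov10+/+ and 21.2, 20.9 and 20.9 CPM in Mov10-/- libraries. The difference was small, 0.09 ± 0.18 on the log2 scale (adjusted p = 0.811), and with DESeq2 size factors in place of TMM the genotypes overlapped. Its neighbour 1700018G05Rik had 0.12 ± 0.18. Of the other 5 genes on the X chromosome, 1700080O16Rik was lower without overlap (-1.02 ± 0.37), 1700084M14Rik was lower with overlap (-2.61 ± 0.75, -1.83 without Mov10+/+ replicate 2 and -3.30 without Mov10-/- replicate 3), 1700013H16Rik, also listed as Slx2, was at -0.23 ± 0.27, and 1700031F05Rik and 1700020N15Rik did not pass the filter.

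The genes with the X-box letters in their promoters were found on both sides. In 3 of the 36 genes with a promoter and no overlap with Mov10-/- lower the letters were present, and in 2 of the 35 other fitted genes. 1700034J05Rik stood at 91, 136 and 74.2 CPM in Mov10+/+ and at 32.8, 64.6 and 51.9 CPM in Mov10-/- libraries (log2 fold change -1.02 ± 0.29, adjusted p = 0.162). 1700125H20Rik stood at 26.8, 38.7 and 19.8 CPM and at 11.1, 16.4 and 16 CPM (-0.97 ± 0.30, adjusted p = 0.176). 1700109H08Rik had -1.42 ± 0.38 without overlap, 1700001K19Rik -4.07 with overlap, and 1700010I14Rik -0.10 ± 0.16 with overlap, at 135, 168 and 130 CPM against 111, 163 and 131 CPM.

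1700066M21Rik, the gene with the full cAMP response element, had an even and small difference. It stood at 62.7, 65 and 59.9 CPM in Mov10+/+ and at 45.6, 40.5 and 50.7 CPM in Mov10-/- libraries, with a log2 fold change of -0.45 ± 0.13 (adjusted p = 0.158). Unlike most of the 97 genes it was lowest in Mov10-/- replicate 3, and Mov10+/+ replicate 2 was only slightly above the other 2.

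The 10 genes that did not pass the filter were read almost only in wild type testes, with 1 exception. 1700016C15Rik had 8, 113 and 0 reads in Mov10+/+ replicates 1, 2 and 3 and 0 in each Mov10-/- library. Against a floor of 3 reads over the 3 Mov10-/- libraries its pooled level was at least 33.5-fold lower, a bound for counting error only. In the same way 1700025C18Rik (4, 88 and 2 reads against 0) was at least 26-fold lower and Nudt16l2 (1700080E11Rik, named for the Nudix hydrolases; 2, 75 and 0 reads against 0) at least 21.3-fold lower. 1700020A23Rik had 13 reads in Mov10+/+ replicate 2 and 0 elsewhere, a bound of at least 3.6-fold. These bounds do not cover the spread between wild type testes, since replicate 2 held most of the reads. In 1700016C15Rik, Nudt16l2 and 1700020A23Rik, Mov10+/+ replicate 3 was at 0, like the Mov10-/- libraries.

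Reads were few in Mov10-/- also for the next 5. 1700012A03Rik had 1 read over the 3 Mov10-/- libraries against 179 in Mov10+/+, 1700034E13Rik 1 against 163, 1700015G11Rik 2 against 103, 1700020N15Rik 4 against 88 and 1700008P02Rik 1 against 34. For all of these 9 genes Mov10+/+ replicate 2 held 68.5% to 100% of the reads. The exception was 1700031F05Rik on the X chromosome, with 22 reads in each genotype.

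Other groups of clone names were compared to see where the 1700 series differed. In the protein-coding 49 series the median log2 fold change of 116 genes was -0.98, and 51.7% had no overlap with Mov10-/- lower. In the non-coding genes of the 1700 series it was -0.83 over 231 genes, with 45.5%. The 87 protein-coding genes, at -0.89 and 48.3%, lay between them. Protein-coding genes with clone names of other series had a median of -0.00 over 203 genes and 14.3%, and all 15731 protein-coding genes 0.06 and 11.7%. In DESeq2 35.6% of the 87 and 35.3% of the 49 series were called lower, and 3.45% of the other series. Group differences have no test of their own here.

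**Figure D4:**
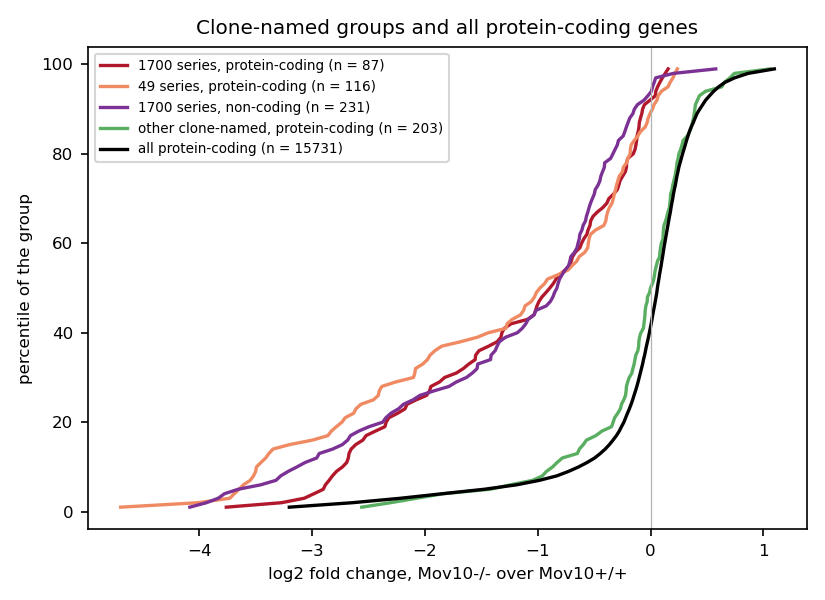
Percentiles of the log2 fold change (Mov10-/- over Mov10+/+) within each group of genes, from the first to the ninety-ninth. The curves of the protein-coding 1700 series, the 49 series and the non-coding 1700 series run close from about the median up, with medians of -0.89, -0.98 and -0.83, apart from clone names of other series and all protein-coding genes, with medians of -0.00 and 0.06.

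Spermatid genes moved over the 6 libraries with the 1700 series. The summed level of the 34 spermatid genes fitted was 1784, 3197 and 1470 CPM in Mov10+/+ replicates 1, 2 and 3 and 916, 1703 and 1166 CPM in Mov10-/- replicates 2, 3 and 4. That of the 97 genes was 3389, 5308 and 3079 CPM and 2134, 3246 and 2632 CPM. In both sums Mov10+/+ replicate 2 was highest, Mov10-/- replicate 2 lowest, and Mov10-/- replicate 3 above Mov10+/+ replicate 3. Mean log2 levels relative to each gene's mean gave the reverse for replicates 3. Mov10-/- stood at -0.06 against 0.06 in Mov10+/+ for the spermatid genes, and at -0.12 against -0.01 for the 97. 21 of the 34 had no overlap with Mov10-/- lower and 0 the reverse, against 14.1% and 11.9% of all genes fitted. The median log2 fold change was -2.10. The part of spermatid number in the values of the 1700 series was not tested.

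Earlier germ cells and somatic cells ran otherwise. The 26 spermatocyte genes had a median of 0.06, with 1 gene below and 2 above without overlap. Over all genes fitted, 14.1% lay below and 11.9% above, for this and the following lists. Spermatocyte genes summed to 3390 to 3639 CPM in Mov10+/+ and 3161 to 3867 CPM in Mov10-/- libraries. The 16 spermatogonial genes had a median of 0.24 and the 15 Sertoli genes 0.31. Above without overlap were 2 and 6 genes, the former close to the share over all genes. Summed levels of the spermatogonial genes were highest in Mov10-/- replicate 2 (822 CPM) and lowest in Mov10+/+ replicate 2 (525 CPM), the reverse of the 1700 series. The same held for the Sertoli genes (1584 and 1091 CPM) and for the 12 peritubular and endothelial genes (944 and 605 CPM), the latter with a median of 0.33 and 7 genes above. Medians were 0.21 for 8 Leydig and 0.32 for 10 macrophage genes, with 0 above, and 0.72 for 12 adipocyte genes. None of these lists but the spermatocyte one had a gene below. Adipocyte genes summed to 140 to 225 CPM in Mov10+/+ and 220 to 273 CPM in Mov10-/- libraries, with 6 above without overlap.

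Of 10 epididymal genes, Lcn8 and Lcn9 were at 0 in all 6 libraries and 3 were fitted (median 0.54). The 10 summed to 20.7, 44.8 and 57.6 CPM in Mov10+/+ and to 143, 10.4 and 3.32 CPM in Mov10-/- libraries, highest in Mov10-/- replicate 2, where Crisp1 alone stood at 69.8 CPM. The 3 multiciliated cell genes fitted of 7 had a median of -0.80, with 2 below without overlap, against 14.1% of all genes fitted. They summed to 106, 160 and 100 CPM in Mov10+/+ and to 71.9, 99 and 77.8 CPM in Mov10-/- libraries, with the same highest and lowest library as the 1700 series. The part of these cell types in the values of the 1700 series was not tested.

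**Figure D5:**
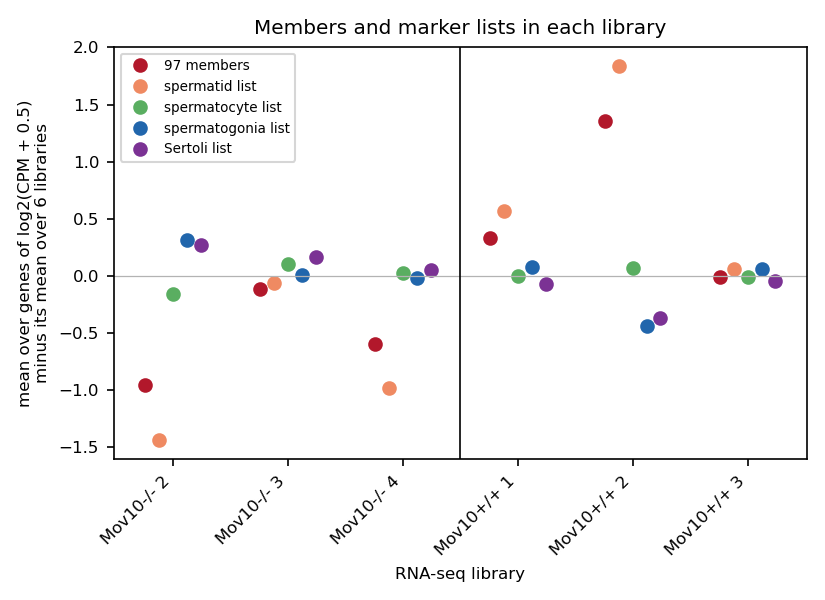
Mean over genes of log2(CPM + 0.5) minus each gene's mean over the 6 libraries, for the 97 genes and 4 marker lists in each RNA-seq library. The 97 genes and the spermatid list are highest in Mov10+/+ replicate 2 (1.36 and 1.84) and lowest in Mov10-/- replicate 2 (-0.96 and -1.44), while the spermatocyte list stays between -0.16 and 0.10.

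Reads of a gene and its partner on the other strand could mix, since the kit keeps the strand and the setting used in counting is not given in the sources used here. 19 of the 97 genes overlap exons on the opposite strand, 9 of them by 200 nt or more, and 2 overlap exons on the same strand, 1700028K03Rik by 2894 nt. Among the 9, 1700088E04Rik overlaps Micall1 and Polr2f over 2474 nt, and 1700028K03Rik, also listed as SCRE, overlaps Glmn over 669 nt. The 68 fitted genes with no exon overlap on the opposite strand had 37 (54.4%) below without overlap between genotypes, beside 48.3% of the 87. The 87 include these 68, so the share was lower among the fitted genes that overlap exons on that strand.

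MOV10 CLIP-seq gave few reads on these genes. 8 of 3948 reads on genes lay on the 97 genes in replicate 1 (0.203%, 95% Wilson interval 0.103% to 0.399%), 6 of 3424 in replicate 2 (0.175%, 0.0803% to 0.382%), 6 of 3404 in replicate 3 (0.176%, 0.0808% to 0.384%) and 24 of 4934 in replicate 5 (0.486%, 0.327% to 0.723%). The intervals cover counting error only. In wild type RNA-seq the share was 0.312% to 0.512%. Replicates 1, 2 and 3 differed by less than the sampling noise (chi-square over its degrees of freedom 0.219 to 0.237, against 1.63 to 1.93 between each and replicate 5) and were counted as 1, which gives a mean share of 0.336% over 2 libraries. The CLIP-seq shares and those of RNA-seq were not tested against each other.

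16 of the 97 genes (16.5%) had a CLIP-seq read in any library, against 19.7% of the 17513 protein-coding genes with at least 10 RNA-seq reads, and 1 had 5 or more. 1700025G04Rik, with 11788 nt of exons for a coding region of 121 codons, had 5, 2, 4 and 8 reads in replicates 1, 2, 3 and 5, which is 19 of the 44 reads on the set. Its RNA level was 75.3, 55.5 and 63.1 CPM in Mov10+/+ and 90, 58.5 and 66.6 CPM in Mov10-/- libraries, with a log2 fold change of 0.15 ± 0.19. It overlaps another gene on the opposite strand over 333 nt.

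The next 4 were at 4 reads or fewer over 4 libraries. 1700069L16Rik had 4 and a log2 fold change of -0.61 ± 0.33, 1700010I14Rik and 1700029F12Rik had 3 each, and 1700109H08Rik had 2. A count of 0 in a library allows up to 3 reads. For the 81 genes without a read, binding was therefore not detectable at this depth.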

How the data were processed

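The authors trimmed adapters, aligned RNA-seq reads to mm10 with STAR and counted them with HTSeq; per the file headers and values, the deposited files hold raw counts per Ensembl gene. For CLIP-seq the methods refer to earlier work and state a scaling to RPM, while the deposited files hold raw counts, and 99.5% to 99.6% of its reads were not aligned. Symbols, biotypes and coordinates came from GENCODE (mm10), which matched 55240 of 55421 genes. Genotypes were compared with edgeR 4.0.16 (TMM, quasi-likelihood test, Benjamini-Hochberg adjustment over all genes fitted) in R 4.3.3, on genes above 1 RPM (reads scaled by the total on genes) in at least 3 of 6 libraries. The methods name edgeR but not its test, so DESeq2 1.42.0, other edgeR tests and limma 3.58.1 (voom) were alternatives, with other scalings, filters, a block on replicate number and each replicate left out. Scripts were tested on simulated data. 1 read stood for 0.108 to 0.197 RPM in RNA-seq and 203 to 294 in CLIP-seq.

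The members and lists were chosen with earlier results of these data known. By rule, the named genes were Mov10, any member called, the 10 highest by wild type RPKM, the 8 lowest and up to 4 highest without overlap at a mean of at least 1 CPM, the 4 least different at a mean of at least 10 CPM, 5 by CLIP-seq reads, 2 on each side of the read minimum, and up to 15 with a current name. Others are said to be named after their values were seen or for their place (X chromosome, promoter, filter). Protein sequences were not used here. Python 3.11.15 was used for tables and plots.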

Additional observations from a re-analysis of the deposited data

Results flagged for a closer look

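4 CLIP-seq values stood far from the other 3 libraries, in a comparison of the largest gap with the whole range of 4 libraries over 6 measures. Chance gives about 1 such value in 20 measures of independent, continuous values. That rate does not hold here, since replicates 1, 2 and 3 agree within sampling noise. The genes were also picked for their CLIP-seq reads, and those were few. A gene with reads in 1 library alone has the whole range as its gap whatever its count, so that flag was fixed in advance. In the other 2 measures, the levels of 1700025G04Rik and 1700069L16Rik, the gap was 0.57 and 0.497 of the range, under the critical value of 0.829. The share of CLIP-seq reads on the 97 genes was 0.486% in replicate 5 and 0.175% to 0.203% in the others, with a gap of 0.912 of the range. 1700010I14Rik was at 0 in replicate 5 and at 253 to 294 RPM, 1 read each, in the others. 1700029F12Rik was at 608 RPM (3 reads) in replicate 5 and 1700109H08Rik at 405 (2 reads), both with 0 reads in the others. Without 1700025G04Rik the share in replicate 5 was 0.324% and in the others 0.0588% to 0.117%.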

How the results depend on the processing

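The direction of the 1700 series held and the number of calls did not. All genes called lower numbered 1 by edgeR's quasi-likelihood test, 988 by DESeq2, 1031 by the exact test, 1104 by the likelihood ratio test and 3 without normalization factors. Those called higher numbered 0, 51, 70, 83 and 3 in that order, and 1 by limma voom. Members called lower were 0 by the quasi-likelihood test, 31 by DESeq2, 29 by the exact test and 30 by the likelihood ratio test, and members called higher were 0 in every setting run. With each replicate left out, 0 to 1 genes were called lower, 34 to 57 members were lower at an unadjusted p under 0.05, 41 to 67 lay below without overlap, 1 to 2 lay above, and the median log2 fold change was -1.18 to -0.53. Over all genes the shares were 6.47% to 11.7% at that p, 14.5% to 21.9% below and 14.4% to 19.5% above. With DESeq2 size factors 0 members lay above. Without the libraries Mov10-/- 2 and Mov10+/+ 2, an alternative chosen after seeing the data, 1 gene was called higher, 25 members were lower at an unadjusted p under 0.05 and 4 lay above, against 6.55% and 21.3% of all genes. The cause was not tested.

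The replicate numbers 2 and 3 are shared between genotypes with no source for a pairing, and deviations correlated at -0.47 and -0.35 between same-numbered libraries. Numbers 1 and 4 each occur in 1 genotype alone. A fit with a replicate block therefore takes the genotype difference from the libraries numbered 2 and 3 only. It has little left to estimate error from, so its calls do not stand for all 6 libraries. In that fit 145 genes were called lower and 36 higher. Among them was 1 member, Acsbg3 (1700061G19Rik, log2 fold change -2.41, adjusted p = 0.0284 by the quasi-likelihood test). In the same fit 32 members were lower at an unadjusted p under 0.05 (7.69% of all genes), and the median was -1.06.

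Of 688 values of 43 named members under the alternatives, 654 kept their sign and 34 did not, all in 15 members with small differences. 1700029P11Rik moved from -0.01 to 0.01 with all genes of at least 10 reads. 1700037H04Rik moved from 0.05 to -0.00 with voom and -0.01 with the block. Without both libraries numbered 2 the values were 0.13 (1700029F12Rik), 0.17 (1700123L14Rik), 0.10 (1700010B08Rik), 0.14 (1700010I14Rik), 0.23 (1700003E16Rik), 0.03 (1700102P08Rik), 0.26 (1700029P11Rik), 0.00 (1700006A11Rik), 0.02 (1700074P13Rik), 0.20 (1700016K19Rik) and -0.14 (1700025G04Rik). With each replicate left out the ranges were -0.30 to 0.04 (1700123L14Rik), -0.25 to 0.02 (1700010I14Rik), -0.28 to 0.09 (1700003E16Rik), -0.40 to 0.01 (1700013H16Rik), -0.38 to 0.07 (1700016K19Rik), -0.18 to 0.13 (1700029P11Rik), -0.01 to 0.10 (1700021F05Rik), -0.19 to 0.20 (1700037H04Rik), -0.04 to 0.15 (1700017B05Rik) and -0.04 to 0.28 (1700025G04Rik). The mean CLIP-seq share was 0.185% to 0.396% over its alternatives.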

Other observations

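Genes of the 1700 series that RefSeq lists under a further name, chosen after their values were seen, differed among themselves. 1700007K13Rik, whose protein sits inside the microtubules of motile cilia, stood at 16.1, 27.3 and 11 CPM in Mov10+/+ and at 3.83, 9.41 and 5.9 CPM in Mov10-/- libraries, without overlap (log2 fold change -1.52 ± 0.45, adjusted p = 0.167). 1700074P13Rik, a trypsin-like serine protease, stood at 83.1, 111 and 81.7 CPM and at 58, 91.7 and 75.8 CPM (-0.29 ± 0.19). 1700016K19Rik, also listed as Liat1, stood at 37.3, 48.4 and 38.1 CPM and at 26.9, 50.7 and 36.5 CPM (-0.12 ± 0.24). In both of these the genotypes overlapped. 1700028K03Rik, whose protein belongs to the synaptonemal complex of spermatocytes, had the most positive value of the fitted genes, 0.16 ± 0.20, at 19.2, 17.9 and 19.9 CPM in Mov10+/+ and 18.2, 22.1 and 23.6 CPM in Mov10-/- libraries. It overlaps another gene on the same strand over 2894 nt, so that its reads may be uncertain.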
